A study of Homo sapiens with 20 samples.

Results

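The genes described here are 35 genes of the ATF4 and unfolded-protein responses, given as a list of symbols that was drawn up with earlier results of these arrays known. Of them 20 belong to the amino-acid and stress programme of the transcription factor ATF4, called the ATF4 branch below, and 15 to the endoplasmic reticulum (ER) chaperone branch. Each was read from the probe set that names it alone and has the highest mean over all 20 arrays. This gave 32 measured genes out of 11963 on the array, 19 of the ATF4 branch and 13 of the ER chaperone branch. SESN2, DNAJB11 and SYVN1 were not analysed here.

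Both branches start at the translation factor eIF2 or at sensors in the ER membrane. Shortage of amino acids, unfolded protein in the ER and other stresses activate kinases that phosphorylate eIF2, which slows protein synthesis in general while ATF4 protein is made more. ATF4 pairs with C/EBP proteins and switches on amino-acid transporters, amino-acid synthesis enzymes and its own feedback inhibitors. The ER sensors ATF6 and IRE1, the latter through the factor XBP1, raise chaperones, disulfide isomerases and the machinery that removes misfolded protein. Secretory epithelium, the origin of breast cancers, relies on the second branch to fold what it exports.

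The cells were SUM44, an established estrogen-receptor-positive line from an invasive lobular carcinoma of the breast, so all values come from a single line. In all 5 groups the medium held charcoal-stripped serum for 3 days to remove hormone, with the serum given as 2% in the series text and as 10% in the sample text. The 0hr group was taken then, with nothing added. The other 4 groups received 1 nM estradiol (E2) or 0.01% ethanol vehicle for 3 h or 24 h, and each group had 4 arrays, lettered A to D, which the series text calls biological quadruplicates. The treatment field of the 24 h estradiol arrays reads baseline while their titles name estradiol, and the titles were followed.

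Values are log2 levels, normalised by the authors with RMA, so equal differences are equal ratios. Arrays of a group correlated at 0.998 to 0.999 and arrays of different groups at 0.988 to 0.998, and 0 pairs were identical. All 8 luminal markers, the estrogen receptor ESR1 and KRT8 among them, lay between the 90.5th and 99.7th percentile of genes, and both measured basal markers lay among the dimmest 25%. Of the stromal markers 4 of 5, and of the immune and endothelial markers 4 of 6, were dim as well. No member had a mean among the dimmest 25%. Differences below are given with the standard error of a limma fit over all 20 arrays, and a gene is called where its Benjamini-Hochberg adjusted p over 11963 genes was below 0.05. Calls for the further probe sets of a gene come from a separate limma fit, adjusted over all 19064 single-symbol probe sets at the same threshold. Calls near the threshold can differ between the fits: MTHFD2 at 3 h had a limma adjusted p of 0.048 over genes and 0.058 over probe sets. Probe sets differ in brightness for technical reasons, so levels are compared between groups within a gene and never between genes.

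Promoter strings that the factors of these pathways are known to read are described first. RefSeq promoter windows on GRCh38.p14, from 250 bases before to 50 after a transcription start, were available for 18 of the 20 ATF4-branch genes and for 15 of 15 ER chaperone genes. Windows were searched on both strands for the ER stress element, which is CCAAT, then 9 bases, then CCACG, bound by ATF6 with its partner NF-Y. It was found in 0.0916% of the 27305 genes of the table (25 genes), in 0 of the ATF4 branch and in 5 ER chaperone genes, CALR, CANX, HSP90B1, HSPA5 and PDIA6. These stretches are shown because their genes rose together late, as described below. Capitals mark the element, or its reverse complement, and each line runs 5′ to 3′ on the strand of the gene. HSPA5 lies at chr9:125241371-125241429 on the minus strand, CALR at chr19:12938364-12938422 on the plus strand, PDIA6 at chr2:10812833-10812891 on the minus strand and CANX at chr5:179698778-179698796 on the plus strand, all upstream of the annotated start whose window is printed.
HSPA5: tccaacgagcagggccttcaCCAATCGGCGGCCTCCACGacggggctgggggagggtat
CALR: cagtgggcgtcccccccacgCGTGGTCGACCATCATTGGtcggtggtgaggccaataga
PDIA6: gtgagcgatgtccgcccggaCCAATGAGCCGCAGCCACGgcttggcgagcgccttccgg
CANX: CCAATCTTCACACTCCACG

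HSP90B1 held the element at 2 places in 1 window, at chr12:103930196-103930359 on the plus strand, here with the bases between them.
HSP90B1: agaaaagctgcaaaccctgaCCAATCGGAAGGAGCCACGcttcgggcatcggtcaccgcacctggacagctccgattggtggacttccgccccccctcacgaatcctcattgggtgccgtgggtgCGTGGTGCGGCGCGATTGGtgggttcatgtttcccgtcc

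The C/EBP-ATF composite element, TGATGNAAN, through which ATF4 acts with a C/EBP partner, is a shorter and more frequent string, present in 4.45% of genes. It was found in 7 ATF4-branch genes, ASNS, ATF3, CEBPG, CHAC1, SLC1A5, SLC3A2 and SLC7A1, and in the ER chaperone branch in HERPUD1. The stretches of ASNS (chr7:97872448-97872496, minus strand), CHAC1 (chr15:40953241-40953289, plus strand) and HERPUD1 (chr16:56931945-56931993, plus strand) are shown to compare the element in a synthesis enzyme, a stress effector and the one ER gene that holds it.
ASNS: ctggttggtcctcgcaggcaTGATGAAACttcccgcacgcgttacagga
CHAC1: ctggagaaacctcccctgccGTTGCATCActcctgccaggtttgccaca
HERPUD1: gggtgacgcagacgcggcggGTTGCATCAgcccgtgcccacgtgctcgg

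The XBP1/ATF6 element TGACGTGG occurred in HYOU1 alone among the members and in 0.927% of all genes, and the cyclic AMP element TGACGTCA, which shares its first letters TGACGT, in PPP1R15A alone and in 2.25% of all genes. A match is a string of letters in a window and says nothing by itself about binding.

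At 3 h estradiol raised the leucine transporter gene SLC7A5 and the regulators CEBPB and DDIT3 and lowered TRIB3. Of 19 measured ATF4-branch genes 7 were called higher, where 13.5% of all genes were, and 2 were called lower, where 17.6% of all genes were. The median difference of the branch was 0.05, against 0.0002 over all genes. Of 13 ER chaperone genes 1 was called higher and 4 lower, with a median of -0.01. Not called were 8 of these 13, 10 of the 19 ATF4-branch genes and 8243 of all 11963 genes. Centring every array on its own median changed these splits to 8 higher and 1 lower in the ATF4 branch, and 2 higher and 3 lower in the ER chaperone branch. In bulk RNA of this kind, fewer cells with a transcript and less transcript per cell cannot be told apart.

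**Figure D1:**
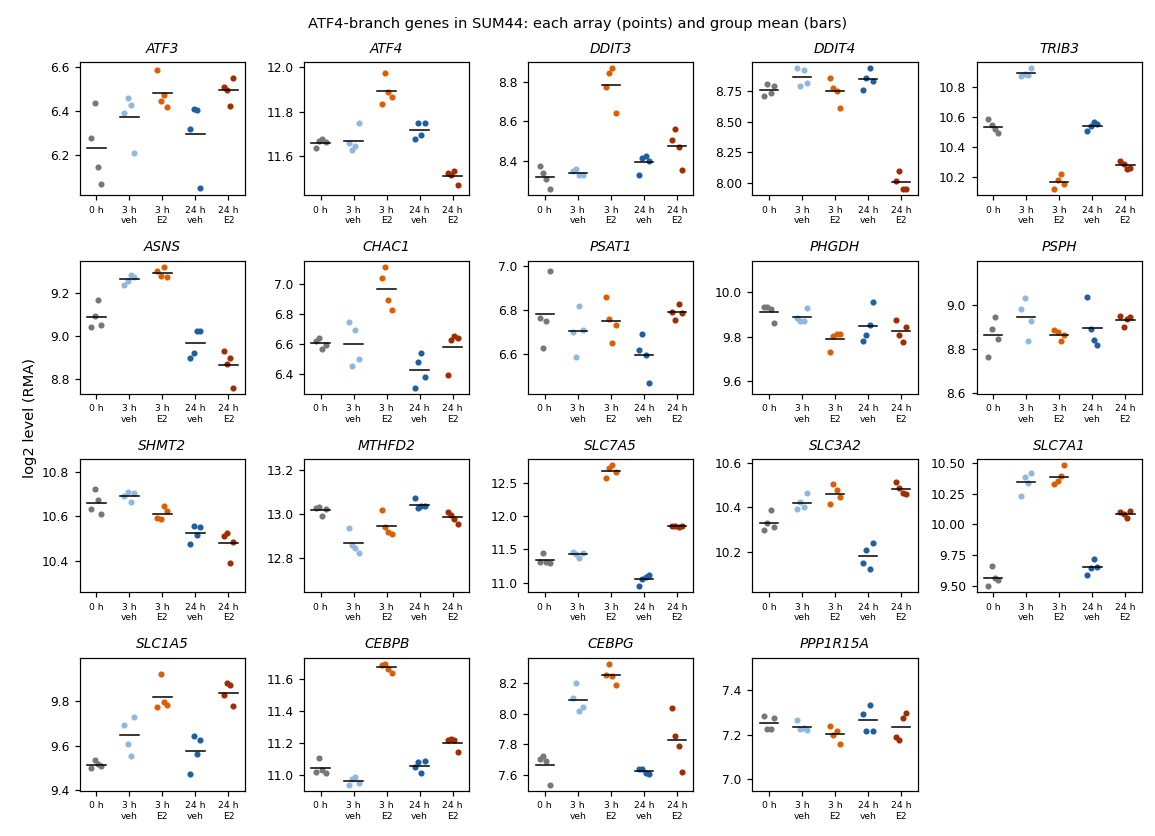
Log2 level (vertical axis, scale differs by panel) of each measured ATF4-branch gene on each array (points, 4 per group) with the group mean (bar), for 0 h, vehicle and estradiol at 3 h and at 24 h. SLC7A5 was highest in the 4 arrays with estradiol at 3 h and stayed above vehicle at 24 h, TRIB3 was below vehicle at both times, and ATF4 was above vehicle at 3 h and below it at 24 h.

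Among the regulators, ATF4 itself changed sides between the times. Its 3 h arrays read 11.66, 11.63, 11.65 and 11.75 with vehicle and 11.84, 11.98, 11.89 and 11.87 with estradiol. Its 24 h arrays read 11.68, 11.75, 11.70 and 11.75 with vehicle and 11.52, 11.51, 11.53 and 11.47 with estradiol. The groups did not overlap at either time, and the order was opposite. ATF4 mRNA was higher by 0.22 ± 0.03 at 3 h (limma, adjusted p = 1.8e-05) and lower at 24 h, at -0.21 ± 0.03 (limma, adjusted p = 3.2e-05). The late effect minus the early effect was -0.43 ± 0.05 (limma, adjusted p = 4.5e-07). ATF4 is controlled largely at translation, and its protein was not measured on these arrays.

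DDIT3, also called CHOP, is a C/EBP-family factor made under prolonged stress. Its 3 h arrays read 8.35, 8.36, 8.33 and 8.33 with vehicle and 8.77, 8.85, 8.87 and 8.65 with estradiol. All estradiol arrays lay above all vehicle arrays, a difference of 0.44 ± 0.05 or 1.36-fold (limma, adjusted p = 2.4e-07). At 24 h the vehicle arrays read 8.33, 8.42, 8.42 and 8.40 and the estradiol arrays 8.50, 8.56, 8.47 and 8.35. The groups overlapped there through replicate D, and the difference of 0.08 (95% interval -0.02 to 0.18) was not called, with a called fall of the effect between the times, -0.36 ± 0.07 (limma, adjusted p = 0.00022). Without that estradiol array it was 0.12 and called (limma, adjusted p = 0.042).

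TRIB3, a pseudokinase that ATF4 and CHOP induce and that restrains ATF4, was lower with estradiol at both times. At 3 h its vehicle arrays read 10.87, 10.89, 10.88 and 10.93 and its estradiol arrays 10.12, 10.18, 10.22 and 10.15. The 24 h vehicle arrays read 10.51, 10.54, 10.56 and 10.56 and the estradiol arrays 10.31, 10.29, 10.26 and 10.27. Every estradiol array lay below every vehicle array of its time. TRIB3 fell by 0.72 ± 0.03 or 1.65-fold at 3 h (limma, adjusted p = 6.2e-14), the largest decrease in either branch at that time. It fell by 0.26 ± 0.03 at 24 h (limma, adjusted p = 1.8e-07), and the early effect was the larger, by 0.46 ± 0.04 (limma, adjusted p = 2e-08). Part of the early gap lay on the vehicle side: the 0 h arrays read 10.59, 10.55, 10.52 and 10.49, below all 3 h vehicle arrays and above all 3 h estradiol arrays.

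CEBPB, a binding partner of ATF4 with many other roles, had the second largest early rise. Its 3 h arrays read 10.94, 10.97, 10.98 and 10.95 with vehicle and 11.69, 11.70, 11.67 and 11.64 with estradiol. That is 0.71 ± 0.03 or 1.64-fold, with no overlap (limma, adjusted p = 1.4e-13). At 24 h they read 11.05, 11.08, 11.01 and 11.09 with vehicle and 11.22, 11.23, 11.22 and 11.14 with estradiol. The groups were still apart, by 0.14 ± 0.03 (limma, adjusted p = 0.00041), and the effect had shrunk by a called amount, -0.57 ± 0.04 (limma, adjusted p = 1.6e-09).

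CEBPG, the other C/EBP partner on the list, rose from 0 h to 3 h with vehicle alone. The 0 h arrays read 7.70, 7.72, 7.69 and 7.54, and the 3 h arrays 8.10, 8.20, 8.02 and 8.04 with vehicle and 8.25, 8.33, 8.25 and 8.19 with estradiol. All 3 h arrays lay above all 0 h arrays. The vehicle arrays differed from 0 h by 0.43 ± 0.07 (limma, adjusted p = 7.8e-05), and estradiol differed from vehicle by 0.16 ± 0.07, which was not called (limma, adjusted p = 0.065). This rested on the setting, since CEBPG was called higher at 3 h under 7 of 8 other settings with the same threshold and reference, the block, both scalings and array weights among them (limma, adjusted p between 0.019 and 0.046). The 24 h vehicle arrays read 7.64, 7.64, 7.61 and 7.61 and the estradiol arrays 8.04, 7.86, 7.79 and 7.62. The 24 h difference of 0.20 ± 0.07 was called (limma, adjusted p = 0.016) although replicate D lay within the vehicle range. Without replicate A it was 0.13 and no longer called (limma, adjusted p = 0.067). ATF3, a stress-induced repressor, differed from vehicle by 0.11 ± 0.08 at 3 h and 0.20 ± 0.08 at 24 h, and neither was called (limma, adjusted p = 0.36 and 0.053). The 24 h difference of ATF3 was called under 4 of 8 other settings (limma, adjusted p between 0.023 and 0.042).

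The 4 amino-acid transporter genes gave the only role of the ATF4 branch whose members were all called at 24 h. Each of them was higher, where 21.5% of all genes were. The role holds only the transporters on the member list, and SLC7A11, SLC38A2 and SLC6A9 were read with the further ATF4 targets below. SLC7A5, the LAT1 transporter of leucine and other large neutral amino acids, read 11.46, 11.43, 11.37 and 11.45 with vehicle at 3 h and 12.57, 12.72, 12.76 and 12.65 with estradiol. At 24 h it read 10.95, 11.05, 11.08 and 11.12 with vehicle and 11.85, 11.85, 11.84 and 11.86 with estradiol. The groups stood wide apart at both times. SLC7A5 rose by 1.25 ± 0.04 or 2.37-fold at 3 h (limma, adjusted p = 1.4e-14), ranking 96th of 11963 genes by difference, and by 0.80 ± 0.04 or 1.74-fold at 24 h (limma, adjusted p = 1.2e-11). It was the only member above 1.5-fold at both times. The late effect was smaller by a called amount, -0.45 ± 0.06 (limma, adjusted p = 9.1e-06), and the 24 h vehicle arrays lay below all 0 h arrays, which read 11.31, 11.44, 11.31 and 11.30.

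SLC3A2, the heavy chain that brings LAT1 to the cell surface, did not follow it at 3 h. The 3 h arrays read 10.39, 10.42, 10.40 and 10.46 with vehicle and 10.41, 10.50, 10.48 and 10.45 with estradiol, and they overlapped. The difference there was 0.04 (95% interval -0.02 to 0.11). At 24 h the arrays read 10.15, 10.20, 10.12 and 10.24 with vehicle and 10.51, 10.49, 10.46 and 10.46 with estradiol. These did not overlap and differed by 0.30 ± 0.03 or 1.23-fold (limma, adjusted p = 1.4e-07), and the growth of the effect was itself called at 0.26 ± 0.04 (limma, adjusted p = 0.0001). Of that late gap, a fall of the vehicle arrays from 0 h by 0.15 ± 0.03 (limma, adjusted p = 0.0031) made up a part, since the 0 h arrays read 10.30, 10.33, 10.39 and 10.31.

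SLC7A1, the cationic transporter of arginine and lysine, rose within 3 h with vehicle alone. The 0 h arrays read 9.49, 9.66, 9.56 and 9.54 and the 3 h vehicle arrays 10.24, 10.39, 10.34 and 10.43, which is 0.78 ± 0.04 or 1.72-fold higher (limma, adjusted p = 4.5e-10). Estradiol at 3 h read 10.33, 10.35, 10.40 and 10.49 and added 0.04 (95% interval -0.05 to 0.14). By 24 h the vehicle arrays were back at 9.59, 9.64, 9.72 and 9.65, while the estradiol arrays read 10.10, 10.08, 10.05 and 10.11. The late difference of 0.44 ± 0.04 or 1.35-fold (limma, adjusted p = 9.8e-08) was measured against a vehicle group that fell by 0.70 ± 0.04 from 3 h to 24 h (limma, adjusted p = 8e-10). Of its 5 probe sets 2 were called higher at 24 h and 0 lower. SLC1A5, the glutamine transporter ASCT2, was higher by 0.17 ± 0.04 at 3 h and 0.26 ± 0.04 at 24 h (limma, adjusted p = 0.0047 and 6.3e-05), without overlap at either time.

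The 6 synthesis enzymes moved little. At 3 h MTHFD2, a mitochondrial folate enzyme, was called higher and PHGDH, the first enzyme of serine synthesis, was called lower, and at 24 h PSAT1 was called higher and ASNS lower. PHGDH read 9.88, 9.87, 9.87 and 9.93 with vehicle at 3 h and 9.73, 9.80, 9.81 and 9.81 with estradiol, a difference of -0.10 ± 0.04 (limma, adjusted p = 0.041). The PHGDH groups did not overlap, but the call was lost when any of 7 of the 8 arrays compared was left out, with limma adjusted p between 0.052 and 0.14, and with both other scalings (limma, adjusted p = 0.071 and 0.08). At 24 h PHGDH read 9.78, 9.81, 9.85 and 9.95 with vehicle and 9.88, 9.81, 9.78 and 9.84 with estradiol, which overlapped, and it was not called.

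MTHFD2 read 13.03, 13.03, 12.99 and 13.02 at 0 h, 12.94, 12.86, 12.85 and 12.82 with vehicle at 3 h and 13.02, 12.94, 12.92 and 12.91 with estradiol at 3 h. Vehicle lay below 0 h by a called difference, -0.15 ± 0.03 (limma, adjusted p = 0.00085), and estradiol overlapped vehicle while lying 0.08 ± 0.03 above it (limma, adjusted p = 0.048). That call was lost without any of 5 of the 8 arrays compared (limma, adjusted p between 0.074 and 0.18) and with only those 8 arrays fitted (limma, adjusted p = 0.18). Against 0 h in place of vehicle the sign of MTHFD2 turned, to -0.07 (limma, adjusted p = 0.065). Asparagine synthetase, ASNS, whose promoter stretch is shown above, differed by 0.03 (95% interval -0.05 to 0.11) at 3 h and by -0.10 ± 0.04 at 24 h (limma, adjusted p = 0.038). That late call was lost without any of 4 of the 8 arrays compared and with cyclic loess scaling (limma, adjusted p = 0.18). PSAT1, a serine-synthesis aminotransferase, was higher by 0.19 ± 0.06 at 24 h (limma, adjusted p = 0.019), a call lost without vehicle replicate D (limma, adjusted p = 0.075), and its 24 h estradiol mean of 6.79 equalled its 0 h mean of 6.78 within the spread. PSPH and SHMT2, a phosphatase and a hydroxymethyltransferase of the serine and glycine route, were called at neither time, with differences between -0.08 and 0.04. SHMT2 at 3 h was called lower with an intensity trend in the variance prior (limma, adjusted p = 0.042), and its second probe set was called lower at 24 h, at -0.11 (limma, adjusted p = 0.014).

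Of the 3 measured stress effectors, DDIT4 moved most, at 24 h. DDIT4, also called REDD1, restrains mTORC1, the kinase complex that amino acids activate. At 3 h it read 8.94, 8.79, 8.93 and 8.82 with vehicle and 8.86, 8.77, 8.75 and 8.61 with estradiol, which overlapped, a difference of -0.12 ± 0.05 (95% interval -0.23 to -0.01) that was not called (limma, adjusted p = 0.094). Without estradiol replicate A it was -0.16 and called (limma, adjusted p = 0.032). At 24 h it read 8.76, 8.86, 8.94 and 8.84 with vehicle and 8.01, 8.10, 7.95 and 7.95 with estradiol. All estradiol arrays lay well below all others of the gene, 0 h included, and DDIT4 fell by 0.85 ± 0.05 or 1.80-fold (limma, adjusted p = 6.7e-11). The gap between the late and the early effect, -0.73 ± 0.07, was the widest of any member (limma, adjusted p = 1.8e-07).

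CHAC1, which degrades glutathione and is a late target of ATF4 and CHOP, was higher by 0.37 ± 0.08 at 3 h without overlap (limma, adjusted p = 0.0006). At 24 h its 0.15 ± 0.08 was not called (limma, adjusted p = 0.12), but without estradiol replicate A, the low one, it was 0.21 and called (limma, adjusted p = 0.028). PPP1R15A, also called GADD34, directs a phosphatase to eIF2 and so ends the response. It differed by -0.03 at both times, with a 95% interval of -0.10 to 0.04. Its second, dimmer probe set was called lower at 24 h, at -0.33, so the probe sets of this gene disagreed.

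**Figure D2:**
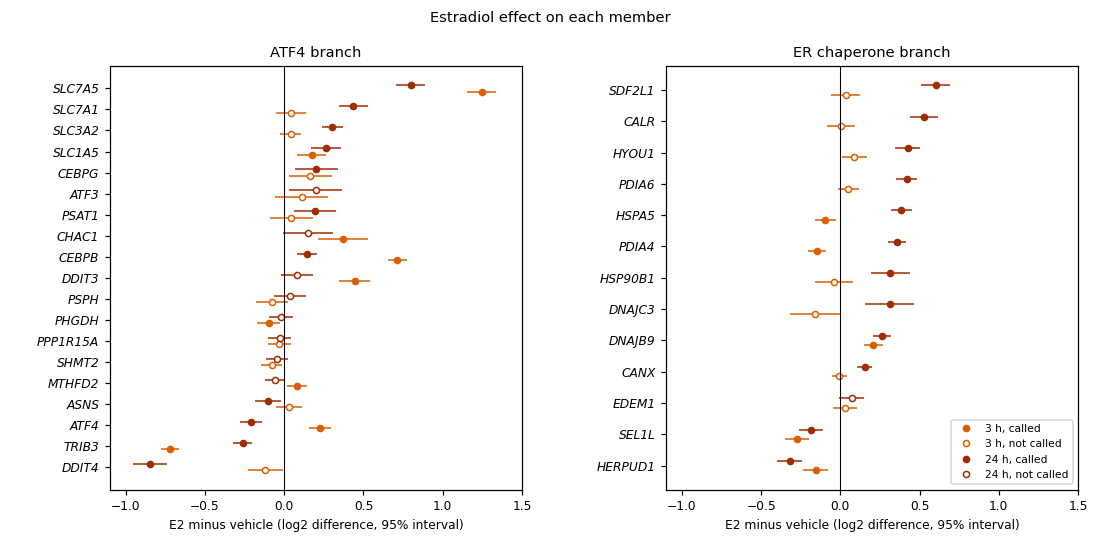
Estradiol minus vehicle (horizontal axis, log2 difference, with 95% interval) for each member at 3 h (orange) and 24 h (dark red), filled where called by limma at an adjusted p below 0.05 and open where not. In the ER chaperone panel 10 of 13 genes were called higher at 24 h while 1 of 13 was at 3 h.

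After 24 h the broader change was in the ER chaperone branch, where SDF2L1, CALR and HYOU1 led. Of its 13 genes 10 were called higher, where 21.5% of all genes were, and 2 were called lower, where 24.2% of all genes were. The median difference was 0.32 against 0.02 over all genes. Of the 13 genes 1 was called higher by at least 1.5-fold, as were 361 of all 11963 genes. In the ATF4 branch 7 of 19 were called higher and 4 lower, with a median of 0.08. When the estradiol effects were compared directly, the 24 h effect lay above the 3 h effect by a called amount for 9 ER chaperone genes, against 16.5% of all genes. It lay below it for 1, HERPUD1, whose decrease deepened, against 17.8% of all genes. In the ATF4 branch the 24 h effect lay above for 3 genes, SLC3A2 and SLC7A1, whose increases grew, and TRIB3, whose decrease shrank. It lay below for 6 genes. Of these CEBPB, DDIT3 and SLC7A5 had smaller increases at 24 h, ATF4 changed sign with both effects called, and the decrease of DDIT4 deepened. MTHFD2 went from 0.08 to -0.06, and its 24 h difference was not called (limma, adjusted p = 0.12).

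**Figure D3:**
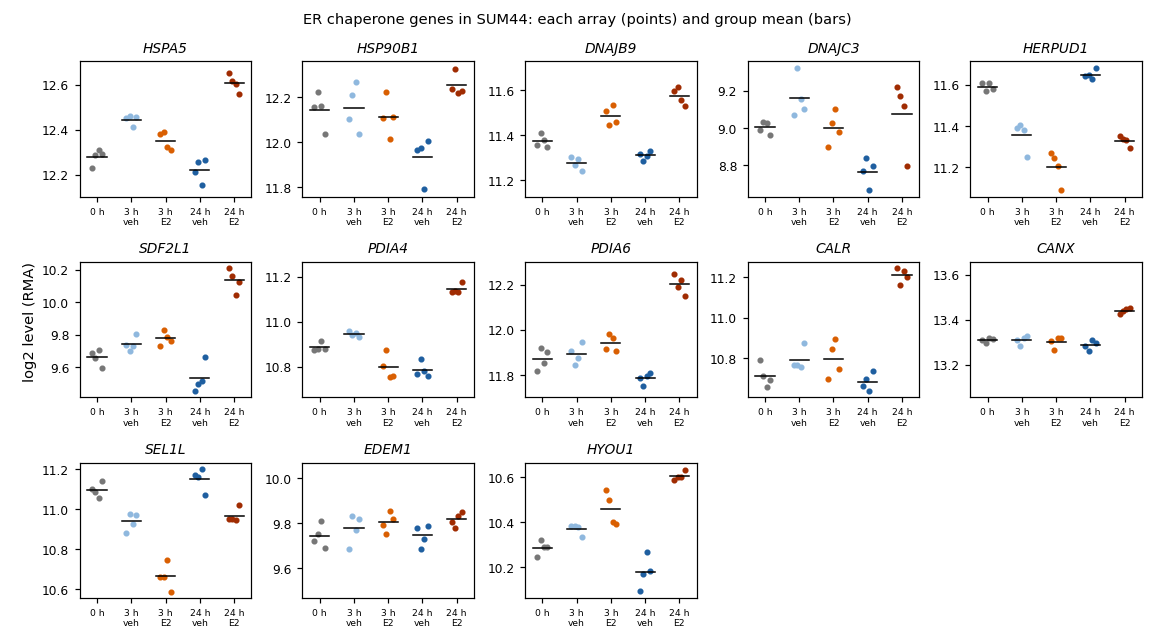
Log2 level (vertical axis, scale differs by panel) of each measured ER chaperone gene on each array (points, 4 per group) with the group mean (bar). For 10 of the 13 genes the highest group mean was that of estradiol at 24 h, while HERPUD1 and SEL1L were highest with vehicle at 24 h and lowest with estradiol at 3 h. The matching share of all genes was not counted.

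The 5 ER chaperones were all called higher at 24 h, where 21.5% of all genes were. HSPA5, or BiP, the Hsp70 of the ER that also holds its sensors inactive, read 12.21, 12.26, 12.15 and 12.27 with vehicle and 12.65, 12.62, 12.60 and 12.56 with estradiol. The groups did not overlap, and the difference was 0.39 ± 0.03 or 1.31-fold (limma, adjusted p = 3.5e-09). At 3 h HSPA5 read 12.45, 12.46, 12.41 and 12.46 with vehicle and 12.38, 12.39, 12.32 and 12.31 with estradiol, so estradiol was the lower, by a small called step of -0.09 ± 0.03 (limma, adjusted p = 0.025). That early call turned on the reference: HSPA5 at 0 h read 12.23, 12.29, 12.31 and 12.29, and against 0 h the 3 h estradiol arrays were 0.07 higher (limma, adjusted p = 0.087). It was also lost without any of 5 of the 8 arrays compared and with every array centred on its median (limma, adjusted p = 0.053). The HSPA5 effect at 24 h lay above that at 3 h by 0.48 ± 0.04 (limma, adjusted p = 4.5e-08).

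CALR, calreticulin, a calcium-binding lectin chaperone for glycoproteins, had the second largest late rise of the branch. It read 10.66, 10.70, 10.64 and 10.74 with vehicle at 24 h and 11.25, 11.16, 11.23 and 11.20 with estradiol. These were 0.53 ± 0.04 or 1.44-fold apart (limma, adjusted p = 3.7e-09). At 3 h CALR read 10.77, 10.77, 10.76 and 10.87 with vehicle and 10.70, 10.85, 10.89 and 10.75 with estradiol, overlapping at a difference of 0.01 (95% interval -0.08 to 0.09). The CALR probe sets disagreed at 3 h, where the second brightest was called higher, by 0.15 (limma, adjusted p = 0.00092), and the other two were not called. All 3 were called higher at 24 h. CANX, calnexin, its membrane-bound counterpart, was higher by 0.15 ± 0.02 at 24 h (limma, adjusted p = 1.2e-05), also in 3 of 3 probe sets, and differed by -0.01 (95% interval -0.05 to 0.04) at 3 h.

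HYOU1, an exchange factor for BiP, read 10.10, 10.17, 10.27 and 10.18 with vehicle at 24 h and 10.59, 10.60, 10.60 and 10.63 with estradiol. Without overlap it rose by 0.42 ± 0.04 or 1.34-fold (limma, adjusted p = 1.1e-08). At 3 h it read 10.38, 10.38, 10.38 and 10.33 with vehicle and 10.54, 10.50, 10.40 and 10.39 with estradiol, all estradiol arrays being higher, and its 0.09 ± 0.04 was not called (limma, adjusted p = 0.079). It was called with every array centred on its median (limma, adjusted p = 0.037) and with cyclic loess scaling (limma, adjusted p = 0.03). HSP90B1, the ER form of Hsp90, read 11.97, 11.98, 11.79 and 12.01 with vehicle at 24 h and 12.23, 12.32, 12.22 and 12.23 with estradiol. The difference of 0.32 ± 0.06 was called (limma, adjusted p = 0.00014), but estradiol exceeded the 0 h arrays, 12.16, 12.22, 12.16 and 12.04, by only 0.11, which was not called (limma, adjusted p = 0.16).

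The J-domain and BiP-associated cochaperones were also called higher at 24 h, 3 of 3, where 21.5% of all genes were. SDF2L1, a stabiliser of BiP complexes with its client proteins, showed the largest late rise of the branch. It read 9.46, 9.50, 9.52 and 9.66 with vehicle at 24 h and 10.21, 10.16, 10.05 and 10.12 with estradiol, without overlap, 0.60 ± 0.04 or 1.52-fold apart (limma, adjusted p = 8.2e-10). At 3 h it read 9.74, 9.70, 9.73 and 9.81 with vehicle and 9.73, 9.83, 9.79 and 9.76 with estradiol, overlapping, with a difference of 0.03 (95% interval -0.06 to 0.13). The effect on SDF2L1 grew by 0.57 ± 0.06 (limma, adjusted p = 4.8e-07).

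DNAJB9, also called ERdj4, was the one ER gene called higher at both times. At 3 h it read 11.30, 11.27, 11.29 and 11.24 with vehicle and 11.51, 11.44, 11.53 and 11.46 with estradiol, and at 24 h 11.32, 11.29, 11.31 and 11.33 with vehicle and 11.60, 11.61, 11.56 and 11.53 with estradiol. The groups were apart at both times, by 0.21 ± 0.03 (limma, adjusted p = 5.2e-06) and 0.26 ± 0.03 (limma, adjusted p = 1.8e-07), and the effects did not differ by a called amount (0.05, 95% interval -0.03 to 0.14). DNAJC3, an inhibitor of the eIF2 kinases as well as a cochaperone, read 8.77, 8.84, 8.66 and 8.79 with vehicle at 24 h and 9.22, 9.17, 9.12 and 8.80 with estradiol. Replicate D of estradiol lay within the vehicle range. The difference of 0.31 ± 0.07 was called (limma, adjusted p = 0.002), and against 0 h the same estradiol arrays differed by 0.07 and were not called (limma, adjusted p = 0.49).

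Both disulfide isomerases rose late. PDIA4 read 10.77, 10.84, 10.78 and 10.76 with vehicle at 24 h and 11.13, 11.14, 11.13 and 11.18 with estradiol, 0.36 ± 0.03 apart (limma, adjusted p = 2.9e-09). At 3 h its order was the opposite, with 10.96, 10.94, 10.95 and 10.93 for vehicle and 10.80, 10.88, 10.75 and 10.76 for estradiol, -0.15 ± 0.03 (limma, adjusted p = 0.00034). Neither pair of PDIA4 groups overlapped, and the change between the times was 0.50 ± 0.04 (limma, adjusted p = 5.9e-09). The dimmer PDIA4 probe set was not called at 3 h, at -0.04 (limma, adjusted p = 0.37), rose by 0.17 at 24 h and gave a change of 0.21 (limma, adjusted p = 3.3e-05 and 0.00026). PDIA6 rose by 0.42 ± 0.03 at 24 h (limma, adjusted p = 1.6e-09), in 4 of 4 probe sets, and differed by 0.05 (95% interval -0.02 to 0.12) at 3 h. CALR, HSP90B1 and PDIA6 were read from probe sets whose name marks possible cross-hybridisation. For CALR and PDIA6 a probe set without that mark gave 0.47 and 0.38 at 24 h. That PDIA6 probe set was also called higher at 3 h, by 0.08 and just under the threshold. The other PDIA6 probe sets were not called there. Both HSP90B1 probe sets carry the mark. The dimmer HSP90B1 set was called higher at 24 h, by 0.42 (limma, adjusted p = 0.0023). Its late effect minus its early effect, 0.33, was not called (limma, adjusted p = 0.097), unlike that of the brighter set.

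The 3 member genes of ER-associated degradation included none that was called higher. The same pair, HERPUD1 and SEL1L, was called lower at both times, where 17.6% of all genes were at 3 h and 24.2% at 24 h. Further degradation genes, DERL1 and EDEM2 among them, were read below in a mixed list of 26 ER genes. Of that list 17 were called higher and 2 lower at 24 h, so the pair does not stand for degradation genes as a class. HERPUD1, a membrane scaffold of the degradation complex and also an ATF4 target, read 11.39, 11.40, 11.38 and 11.25 with vehicle at 3 h and 11.27, 11.24, 11.21 and 11.09 with estradiol. These overlapped through vehicle replicate D, at a called difference of -0.15 ± 0.04 (limma, adjusted p = 0.003). At 24 h HERPUD1 read 11.64, 11.65, 11.63 and 11.68 with vehicle and 11.35, 11.34, 11.33 and 11.29 with estradiol, without overlap, and fell by 0.32 ± 0.04 or 1.25-fold (limma, adjusted p = 7.5e-07). It is also the ER gene with the composite element printed above.

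SEL1L, the adaptor of the HRD1 ubiquitin ligase, read 10.88, 10.98, 10.92 and 10.97 with vehicle at 3 h and 10.66, 10.66, 10.75 and 10.59 with estradiol, then 11.17, 11.16, 11.20 and 11.07 with vehicle at 24 h and 10.95, 10.95, 10.95 and 11.02 with estradiol. It lay below vehicle without overlap both times, at -0.28 ± 0.04 (limma, adjusted p = 5.2e-06) and -0.18 ± 0.04 (limma, adjusted p = 0.00036). Of its 4 probe sets only the brightest was called, lower, at either time. EDEM1, which extracts misfolded glycoproteins, differed by 0.03 at 3 h and 0.07 (95% interval -0.01 to 0.15) at 24 h and was not called, except at 24 h with cyclic loess scaling (limma, adjusted p = 0.022).

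Markers of RNA quality and of cell identity differed between some of the same groups. The 3′ minus 5′ log2 difference of the ACTB control probe sets ran from 0.291 to 0.339 with vehicle and from 0.343 to 0.419 with estradiol at 3 h, without overlap. At 24 h the corresponding ranges of 0.358 to 0.435 and 0.365 to 0.395 overlapped, and at 0 h the range was 0.456 to 0.479, above the other groups. For GAPDH the 3 h ranges were -0.123 to -0.104 with vehicle and -0.153 to -0.129 with estradiol. The summed log2 level of the 8 luminal markers ran from 105.5 to 105.6 with vehicle and from 102.3 to 103.1 with estradiol at 3 h, and from 105.0 to 105.3 and 105.4 to 105.6 at 24 h. At 3 h 3 of the 8 were called higher and 3 lower, against 13.5% and 17.6% of all genes. Their differences ran from -2.07 to 0.59 with a median of -0.01, so the lower sum was not shared by all 8. At 24 h 4 were called higher and 4 lower, against 21.5% and 24.2% of all genes. The summed levels of the basal, stromal, and immune and endothelial markers overlapped between estradiol and vehicle at both times. The part of these markers in the results above was not tested.

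Vehicle and time in culture moved the members as well, which bears on every comparison with estradiol because the vehicle arrays are shared. From 0 h to 3 h with vehicle, 5 ATF4-branch genes were called higher, where 9.95% of all genes were, and 1 lower, where 10.1% of all genes were. SLC7A1 and CEBPG were the largest, and TRIB3 rose by 0.36 ± 0.03 (limma, adjusted p = 2.5e-08). In the ER chaperone branch HSPA5 was higher, by 0.17 ± 0.03 (limma, adjusted p = 0.00061), and 3 genes were lower, led by HERPUD1 at -0.23 ± 0.04 and SEL1L at -0.16 ± 0.04 (limma, adjusted p = 0.00014 and 0.0044). The 0 h arrays of HERPUD1 read 11.61, 11.57, 11.61 and 11.58 and those of SEL1L 11.10, 11.09, 11.05 and 11.14, in each case above every 3 h vehicle array. After centring every array on its own median, the ATF4-branch split was 4 higher and 2 lower. SLC1A5, called higher at 0.13 ± 0.04 (limma, adjusted p = 0.042), lost its call without any of 7 of the 8 arrays compared. DNAJB9, called lower at -0.10 ± 0.03 (limma, adjusted p = 0.019), lost its call without any of 2 of them.

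From 0 h to 24 h with vehicle 0 members were called higher, where 7.55% of all genes were, and 4 ATF4-branch and 3 ER chaperone genes were lower, where 4.37% of all genes were. SLC7A5 had the largest step, -0.29 ± 0.04 (limma, adjusted p = 0.00015). ASNS, another of the 4, lay at -0.12 ± 0.04 (limma, adjusted p = 0.048). Its call was lost without any of 5 of the 8 arrays compared (limma, adjusted p between 0.058 and 0.15). In the ER chaperone branch DNAJC3 at -0.24 ± 0.07, HSP90B1 at -0.21 ± 0.06 and PDIA4 at -0.10 ± 0.03 were called (limma, adjusted p = 0.046, 0.022 and 0.025). The DNAJC3 call was lost whichever of the 8 arrays compared was left out (limma, adjusted p between 0.053 and 0.13), and those of HSP90B1 and PDIA4 without any of 4 of them. The dimmer HSP90B1 probe set was not called here, at -0.08 (limma, adjusted p = 0.69). The DNAJC3 arrays at 0 h read 8.99, 9.03, 9.03 and 8.96, above every 24 h vehicle array. The count of 3 in this branch moved with single arrays: it was 0 without 0 h replicate C, 1 without 0 h replicate A or B or without 24 h vehicle replicate A or C, and 6 with cyclic loess scaling.

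Between the vehicle groups themselves, 24 h against 3 h, 2 ATF4-branch genes were higher and 7 lower, and 2 ER chaperone genes were higher and 7 lower, where 16.1% of all genes were higher and 12.8% lower. MTHFD2 and CEBPB were the ATF4-branch genes that rose, by 0.18 ± 0.03 and 0.10 ± 0.03 (limma, adjusted p = 0.00012 and 0.017), and the 24 h vehicle arrays of MTHFD2 read 13.07, 13.03, 13.04 and 13.04. The CEBPB call was lost without any of 3 of the 8 arrays compared. HERPUD1 and SEL1L rose by 0.29 ± 0.04 and 0.21 ± 0.04 (limma, adjusted p = 6.8e-06 and 0.00018). DNAJC3 fell by 0.40 ± 0.07 and HSPA5 fell by 0.22 ± 0.03 (limma, adjusted p = 0.00041 and 1.5e-05), and the 3 h vehicle arrays of DNAJC3 read 9.07, 9.32, 9.16 and 9.10. For 9 of 13 ER chaperone genes the lowest of the 5 group means was vehicle at 24 h. The share of all genes with their lowest mean there was not counted.

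**Figure D4:**
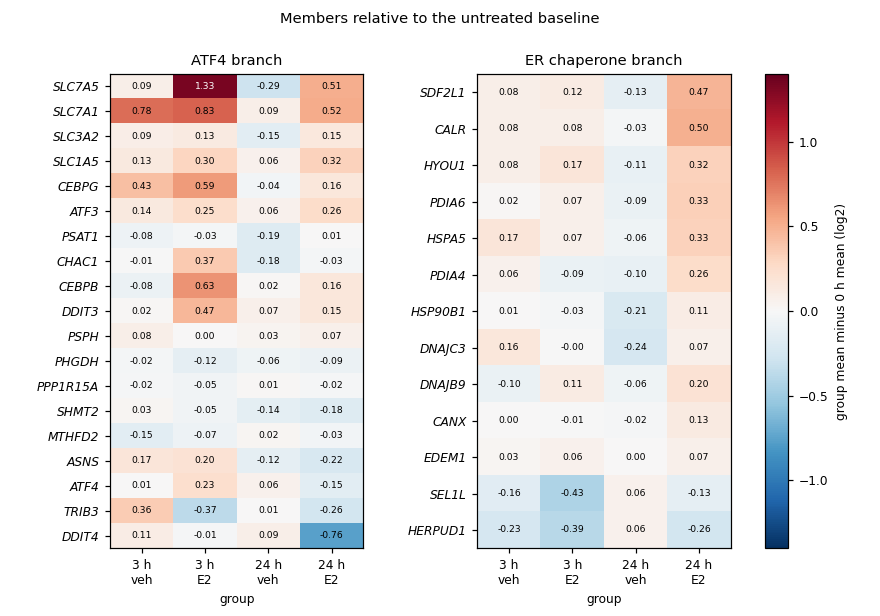
Group mean minus the 0 h mean (colour and printed value, log2) for each member in the 4 treated groups, with the same row order as the plot of estradiol effects. SLC7A1 and CEBPG stood above 0 h in both 3 h groups, and most ER chaperone genes stood above 0 h in the 24 h estradiol group and at or below it in the 24 h vehicle group.

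Measured against 0 h in place of vehicle, estradiol at 24 h was called higher for 8 ER chaperone genes and 7 ATF4-branch genes, where 19.2% of all genes were, and lower for 2 and 5, where 22.4% of all genes were. At 3 h it was higher for 11 ATF4-branch and 3 ER chaperone genes, where 15.7% of all genes were, and lower for 2 and 3, where 19.8% of all genes were. These counts mix estradiol with time in culture and handling.

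Neighbouring parts of the pathway were read from lists that do not overlap the members. For comparison with each list, 13.5% of all genes were called higher and 17.6% lower at 3 h. At 24 h 21.5% of all genes were higher and 24.2% lower. Upstream, of 11 eIF2 kinase, eIF2 and eIF2B genes 1 was called higher and 1 lower at 3 h, and 2 higher and 5 lower at 24 h. These were 9.09% each way at 3 h, and 18.2% and 45.5% at 24 h. The early calls were EIF2B2, a subunit of the eIF2 exchange factor, at 0.36 ± 0.03 (limma, adjusted p = 2.7e-08), and EIF2AK3, the ER stress kinase PERK, at -0.23 ± 0.03 (limma, adjusted p = 7.9e-06). EIF2S1, the phosphorylated subunit of eIF2, had the next smallest p at 3 h and was not called, at 0.06 ± 0.03 (limma, adjusted p = 0.14). At 24 h the 3 measured eIF2 kinases were all lower: EIF2AK2, or PKR, at -0.42 ± 0.05, EIF2AK3 at -0.27 ± 0.03 and EIF2AK1, or HRI, at -0.24 ± 0.03 (limma, adjusted p = 6.6e-07, 7.7e-07 and 9.6e-06).

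Of 14 further ATF4 targets 3 were called higher and 8 lower at 3 h, and 5 higher and 5 lower at 24 h. These were 21.4% and 57.1% at 3 h, and 35.7% each way at 24 h. STC2, a secreted glycoprotein, rose by 1.03 ± 0.03 at 3 h and lay at -0.64 ± 0.03 at 24 h (limma, adjusted p = 4.4e-15 and 5.7e-12), an order of signs like that of ATF4. VLDLR, a lipoprotein receptor, rose by 1.80 ± 0.08 and 0.66 ± 0.08 (limma, adjusted p = 2.3e-13 and 5e-07). SLC7A11, the cystine transporter, lay at -1.43 ± 0.09 at 3 h (limma, adjusted p = 1.7e-10), the opposite direction to SLC7A5, and NUPR1, a stress-induced chromatin protein, at -0.49 ± 0.04 at 24 h (limma, adjusted p = 3.2e-09).

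Of 16 cytosolic tRNA synthetases 7 were called higher and 0 lower at 3 h, led by TARS1 at 0.68 ± 0.04, CARS1 at 0.19 ± 0.03 and SARS1 at 0.17 ± 0.04 (limma, adjusted p = 6.1e-12, 2e-04 and 0.0016), the enzymes for threonine, cysteine and serine. At 24 h 6 were higher and 3 lower, with AARS1 at 0.31 ± 0.03 and IARS1 at 0.22 ± 0.03 above vehicle and GARS1 at -0.18 ± 0.03 below it (limma, adjusted p = 4e-09, 8.3e-06 and 7.5e-05). The shares of the tRNA synthetases were 43.8% higher and 0% lower at 3 h, and 37.5% and 18.8% at 24 h. Of 4 further folate and glycine enzymes, FPGS was higher at 3 h by 0.19 ± 0.06 (limma, adjusted p = 0.011) while GLDC and SHMT1 were not called. At 24 h MTHFD1, the cytosolic folate enzyme, rose by 0.83 ± 0.03 and FPGS by 0.31 ± 0.06 (limma, adjusted p = 2e-14 and 0.00015), and SHMT1 at 0.18 ± 0.07 was not called (limma, adjusted p = 0.051).

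Among 7 sensors and regulators of the ER branch, XBP1 was higher at both times, by 0.36 ± 0.03 and 0.29 ± 0.03 (limma, adjusted p = 7.6e-10 and 1.3e-08). These arrays do not separate its spliced and unspliced forms. MBTPS1, the protease that releases ATF6, was lower at both, at -0.30 ± 0.03 and -0.38 ± 0.03 (limma, adjusted p = 8e-08 and 2.3e-09). CREB3L2 was not called at 3 h, and ATF6B was lower at 24 h at -0.11 ± 0.04 (limma, adjusted p = 0.022). In all, 1 of the 7 was higher and 1 lower at 3 h, and 3 higher and 2 lower at 24 h. That is 14.3% each way at 3 h, and 42.9% and 28.6% at 24 h.

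Of 26 other ER folding, translocation and degradation genes 3 were higher and 2 lower at 3 h, and 17 were higher and 2 lower at 24 h, with a median of 0.16 at 24 h. These were 11.5% and 7.69% at 3 h, and 65.4% and 7.69% at 24 h. HSPA13, SEC61A1 and SEC62 had the smallest p at 3 h, at 0.49 ± 0.05, 0.22 ± 0.03 and 0.09 ± 0.02 (limma, adjusted p = 7.9e-08, 2e-05 and 0.0061). At 24 h CRELD2 and MANF, secreted proteins of the ER stress response, were higher by 0.45 ± 0.04 and 0.40 ± 0.03 (limma, adjusted p = 7.6e-09 and 1.2e-08), and DNAJC1 was lower, at -0.69 ± 0.03 (limma, adjusted p = 3.1e-13).

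The 9 measured heat shock genes of the cytosol and mitochondria were mostly lower at 24 h, with 1 higher and 7 lower, after 2 higher and 2 lower at 3 h. The shares were 11.1% and 77.8% at 24 h, and 22.2% each way at 3 h. HSPE1, DNAJB1 and HSP90AB1 lay at -0.34 ± 0.03, -0.33 ± 0.04 and -0.25 ± 0.03 at 24 h (limma, adjusted p = 1.2e-08, 1e-06 and 1.9e-06). At 3 h HSPE1 was lower, at -0.22 ± 0.03, and DNAJA1 and HSPA4 were higher by 0.27 ± 0.04 and 0.17 ± 0.03 (limma, adjusted p = 7.1e-06, 8.9e-06 and 0.00081). These are chaperones outside the ER, and all 9 were also called lower with vehicle at 24 h than at 0 h, where 4.37% of all genes were.

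**Figure D5:**
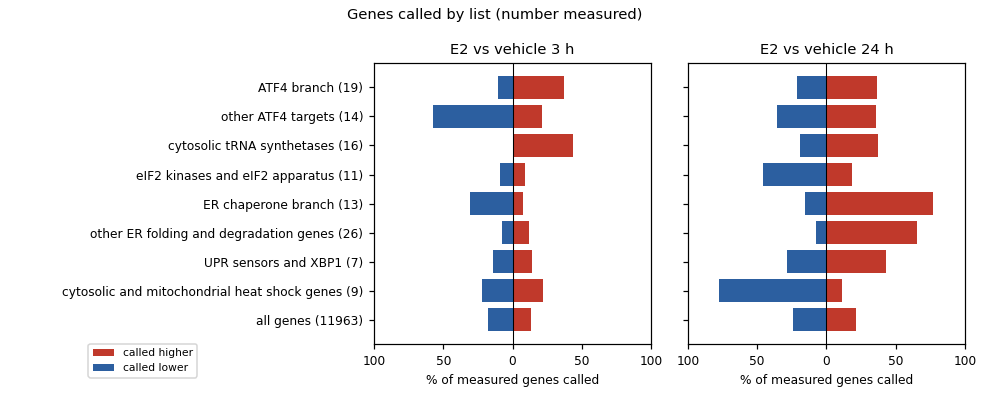
Share of measured genes called higher (red, to the right) and lower (blue, to the left) with estradiol against vehicle at 3 h and 24 h, in percent (horizontal axis), for both branches, 6 neighbouring lists and all genes; the number measured is in parentheses. At 24 h 76.9% of the ER chaperone branch and 65.4% of the other ER genes were called higher against 21.5% of all genes, and 77.8% of the heat shock genes were called lower against 24.2%.

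The promoter strings and the calls were set side by side as a description. All 5 ER chaperone genes with an ER stress element in the window, CALR, CANX, HSP90B1, HSPA5 and PDIA6, were called higher at 24 h, and so were 5 of the 8 measured ER chaperone genes without it. Of 9 measured genes with the element that are not members, 4 were called higher at 24 h, XBP1, CRELD2, FICD and TRIM5, and 1 lower, SYNPO at -0.41. These were 44.4% and 11.1%, beside 21.5% and 24.2% of all genes. Of 319 measured non-members with the composite element 21.9% were called higher and 20.7% lower at 24 h, near the shares of all genes, and 14.4% and 17.2% at 3 h. Of the 8 members with the composite element 4 were higher at 24 h and 2 lower, ASNS and HERPUD1.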

How the data were processed

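RNA levels were measured on 20 Affymetrix arrays in 5 groups of 4. The deposited values are log2 levels per probe set that the authors computed by RMA (affy), according to the submitters' processing notes. Versions and settings are not given in the sources used here. Because RMA makes the distributions of arrays alike, total RNA per cell cannot be compared.

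Of 22277 probe sets, 62 controls were left out of the gene table. The platform annotation gave 1 symbol for 19064, several for 1043 and none for 2108, and 19052 matched RefSeq by Entrez number. The brightest single-symbol probe set stood for each of 11963 genes, with no filter on dim ones. Limma 3.58.1 in R 4.3.3 (lmFit, eBayes, two-sided) was fitted to all 20 arrays with a mean per group and Benjamini-Hochberg adjustment over all genes. Errors are standard errors of that fit. The code was tested on simulated data.

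The members and lists were chosen with earlier results of these data known, so counts over them are descriptions. By rule, every array was printed for the 3 largest called changes each way per branch in the estradiol comparisons, for the 2 largest in the vehicle comparisons, and always for ATF4, DDIT3, TRIB3, HSPA5 and HERPUD1. Up to 3 genes with the smallest p were named per other list. TRIM5, SYNPO, FICD and promoter strings were chosen for display after values were seen. Same-letter arrays mostly did not deviate together: 6 of 40 pairs had a correlation over 0.1. The highest were 0.37 and 0.25, for replicates D and A of the 3 h and 24 h estradiol groups. Alternatives covered scaling, dim genes, probe sets, a block, the variance prior, array weights, arrays fitted, the threshold, the reference group and single arrays left out.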

Additional observations from a re-analysis of the deposited data

Results flagged for a closer look

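Single arrays that lay far from the other 3 of their group were looked for in 160 combinations of gene and group with Dixon's ratio at its 95% critical value, and 12 were found. Chance gives about 1 in 20. In the ATF4 branch they were CHAC1 in 24 h estradiol A at 6.40 (others 6.63 to 6.65), PHGDH in 3 h estradiol A at 9.73 (others 9.80 to 9.81), SLC7A5 in 0 h B at 11.44 (others 11.30 to 11.31), SLC1A5 in 3 h estradiol B at 9.92 (others 9.78 to 9.80) and CEBPB in 24 h estradiol D at 11.14 (others 11.22 to 11.23). In the ER chaperone branch 3 h vehicle D was outlying for HERPUD1 at 11.25 (others 11.38 to 11.40), CALR at 10.87 (others 10.76 to 10.77) and HYOU1 at 10.33 (others 10.38). The others were HSP90B1 in 24 h estradiol B at 12.32 (others 12.22 to 12.23), PDIA4 in 0 h C at 10.91 (others 10.88) and in 24 h estradiol D at 11.18 (others 11.13 to 11.14), and SEL1L in 24 h estradiol D at 11.02 (others 10.95).

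For 19 members the estradiol effect differed between 24 h and 3 h by limma's test of that difference. In the ATF4 branch the late effect minus the early effect was -0.43 for ATF4, -0.36 for DDIT3, -0.73 for DDIT4, 0.46 for TRIB3, -0.14 for MTHFD2, -0.45 for SLC7A5, 0.26 for SLC3A2, 0.39 for SLC7A1 and -0.57 for CEBPB. In the ER chaperone branch it was 0.48 for HSPA5, 0.36 for HSP90B1, 0.47 for DNAJC3, -0.17 for HERPUD1, 0.57 for SDF2L1, 0.50 for PDIA4, 0.37 for PDIA6, 0.52 for CALR, 0.16 for CANX and 0.34 for HYOU1.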

How the results depend on the processing

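With both directions summed, the branch counts for the estradiol comparisons stayed within 1.5 times under every alternative that was run with the vehicle groups as reference. By direction the small 3 h counts moved more: ATF4-branch genes called lower ran from 1 to 3 (2 as reported) and ER chaperone genes called higher from 1 to 2 (1 as reported), while 6 to 8 and 3 to 4 were called the other way. Leaving out 1 array gave 12 ER chaperone calls at 24 h each time, 9 to 12 in the ATF4 branch at 24 h, 7 to 9 and 4 to 5 in the branches at 3 h. The counts for vehicle against 0 h moved more. At an adjusted p of 0.01 the calls over all genes went from 2393 to 1573 at 3 h and from 1426 to 784 at 24 h, the smaller counts following from the stricter threshold. The 3 lower ER chaperone genes in 24 h vehicle against 0 h became 6 with cyclic loess, with an intensity trend in the variance prior or with array weights, 5 without the dimmest 25% of genes, 0 at an adjusted p of 0.01, and 0 to 3 with 1 array left out. The direction of MTHFD2 (to -0.0722) and HSPA5 (to 0.0709) at 3 h turned with 0 h in place of vehicle, and the cause was not tested. Cyclic loess gave 8 higher and 1 lower ATF4-branch genes and 2 higher and 4 lower ER chaperone genes at 3 h. With the replicate letter as a block, 9 ATF4-branch genes were called at 3 h and 12 at 24 h, in place of 9 and 11, and 5 and 12 ER chaperone genes, as without it. The letters pair nothing in the labels, and the correlations of same-letter deviations ran from -0.245 to 0.37. The number of arrays limits the precision.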
